A study of Homo sapiens with 12 samples.

Results

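A set of genes of the spindle and the kinetochore, 10 of the 50868 genes of the deposited table, were described across 12 RNA-seq libraries of RPMI2650, an epithelial line from a human nasal septum tumour. They are HMMR, ASPM, DLGAP5, ECT2, CENPE, CENPF, TPX2, NUSAP1, PRC1 and BUB1, found in the table by gene symbol. All 10 passed the filter on low counts, as did 16554 genes in all. The members were selected on their levels in the PFHxA and control libraries, so the values of that contrast describe them and are no test of them. The groups were 4 libraries labelled Control, 4 of cells given 1 µM PFBA and 4 of cells given 1 µM PFHxA, both for 7 days. PFBA (perfluorobutanoic acid) and PFHxA (perfluorohexanoic acid) are perfluoroalkyl carboxylic acids of which PFHxA has the longer chain. All cells were of 1 line, labelled wild type and kept at an air-liquid interface, the layout in which nasal cells face air above and medium below. No vehicle or time is recorded for the controls, and no source used here says whether libraries of a group came from separate cultures, so that p-values measure the spread between libraries, which may be technical.

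The spindle is the array of microtubules that pulls sister chromosomes apart in mitosis, and the kinetochore is the protein complex on each centromere by which a chromosome holds on to it. Transcripts of these genes accumulate in G2 and M phase and are low in resting cells, so in tissue and culture they serve as marks of dividing cells. Many of their promoters carry CCAAT boxes, bound by NF-Y, and a cell cycle genes homology region (CHR), bound by the MuvB complex, which represses the genes in resting cells as DREAM and activates them in G2 with B-MYB. In bulk RNA, fewer cells in mitosis and less of the transcript per cell cannot be told apart.

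Positions are those of the deposited table, on GRCh38. Of the kinetochore and its checkpoint there are CENPE (ENSG00000138778) at chr4:103105806-103198409 on the minus strand, CENPF (ENSG00000117724) at chr1:214603195-214664588 on the plus strand and BUB1 (ENSG00000169679) at chr2:110637698-110678114 on the minus strand. Of the spindle poles and fibres there are HMMR (ENSG00000072571) at chr5:163460203-163491945 on the plus strand, ASPM (ENSG00000066279) at chr1:197084128-197146694 on the minus strand, DLGAP5 (ENSG00000126787) at chr14:55148112-55191678 on the minus strand, TPX2 (ENSG00000088325) at chr20:31739271-31801805 on the plus strand and NUSAP1 (ENSG00000137804) at chr15:41332694-41381050 on the plus strand. Of the central spindle and cytokinesis there are ECT2 (ENSG00000114346) at chr3:172750682-172821474 on the plus strand and PRC1 (ENSG00000198901) at chr15:90966038-90995629 on the minus strand.

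The promoters were laid out first, since sequence was not used in choosing the members. RefSeq windows on GRCh38.p14, from 250 bases before to 50 after the transcript start, were given for 9 of the 10 genes, all but TPX2. CCAAT was searched on both strands, as was the CHR in its forms TTTGAA and TTCGAA, the latter a palindrome counted once. CCAAT was present in 8 of the 9 windows and in 35.7% of 27305 genes with a window. TTTGAA was present in 7 of 9 and in 15.4% of all. At least 1 CCAAT together with TTTGAA or TTCGAA stood in 8 of 9 windows, against 6.58% of all and 38 of the 121 windows found for other genes of mitosis. The 200 bases before the start of HMMR and of CENPE are printed because they are the 2 extremes of the set: HMMR held 5 CCAAT matches, of which an overlapping pair reads CCAATTGG, and 2 TTTGAA in tandem, and CENPE held neither CCAAT nor TTTGAA or TTCGAA. A related form, TTTAAA, also a palindrome, was searched too: it stood in 4 of 9 windows and 12.35% of all, and in CENPE at -195, -68 and -62 from the start, where it is left in lower case. Capitals mark CCAAT or TTTGAA on either strand.
HMMR (chr5:163460432-163460631, plus strand): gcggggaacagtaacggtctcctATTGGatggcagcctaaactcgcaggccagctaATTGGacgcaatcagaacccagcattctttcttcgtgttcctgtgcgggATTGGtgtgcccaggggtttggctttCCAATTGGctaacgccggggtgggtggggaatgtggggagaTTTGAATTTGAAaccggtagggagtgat
CENPE (chr4:103198344-103198543, minus strand): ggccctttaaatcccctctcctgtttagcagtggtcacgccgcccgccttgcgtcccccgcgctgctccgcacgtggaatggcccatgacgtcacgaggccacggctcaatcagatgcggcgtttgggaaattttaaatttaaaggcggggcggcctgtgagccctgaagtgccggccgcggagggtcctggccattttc

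In 7 further genes the CHR nearest to the start is shown in 30 bases, 5′ to 3′ on the strand of the gene, with the element in capitals. They are shown because all but the ASPM site lie around the transcript start.
ASPM (chr1:197146765-197146794, minus strand): cggatgcaatcaTTCAAAtgaagcgccgcc
DLGAP5 (chr14:55191565-55191594, minus strand): cggtgcggcaagTTTGAAtttcgtggaggc
ECT2 (chr3:172750746-172750775, plus strand): agagcagcttagttTTTGAAtcggttgtgg
CENPF (chr1:214603215-214603244, plus strand): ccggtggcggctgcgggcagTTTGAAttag
NUSAP1 (chr15:41332882-41332911, plus strand): tggcgccagggaTTTGAAccgcgctgacga
PRC1 (chr15:90994538-90994567, minus strand): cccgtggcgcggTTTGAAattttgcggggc
BUB1 (chr2:110678045-110678074, minus strand): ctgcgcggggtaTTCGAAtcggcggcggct
Counting the first transcribed base as 1, the element began at -20 in PRC1, 2 in BUB1, 4 in DLGAP5, 14 in NUSAP1, 35 in ECT2 and 41 in CENPF, and at -113 in ASPM, on the other strand. A match is a stretch of letters and does not show that a factor binds there.

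**Figure D1:**
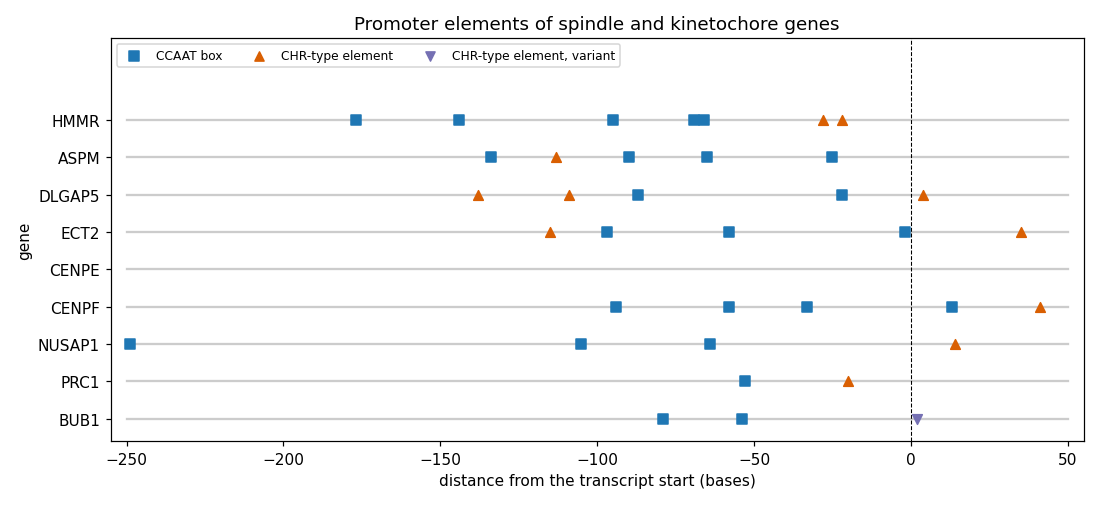
Positions of CCAAT boxes (squares) and of CHR-type elements (triangles, on either strand) in the promoter windows of 9 genes; the x axis is the distance from the transcript start in bases and each row is a gene. HMMR has 5 squares and 2 adjacent triangles, while the row of CENPE is empty, TTTAAA not being drawn.

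Depth ran from 16941599 to 21879105 counts per library. The members took between 754.1 and 1023 CPM (counts scaled by TMM to a common library size) in sum. For cell type markers alone, CPM was scaled by the total count of the library, without TMM. Epithelial identity was checked with 10 markers, of which 9 lay over 1 CPM. In control KRT8 and KRT19 were at 322.9 and 358.1 CPM. Others were low there, with CDH1 at 8.46, ITGB4 at 2.70, CLDN4 at 1.57 and CDH3 at 0.935 CPM. Of 4 endothelial markers 1 lay over 1 CPM, CDH5, at 8.63 CPM in control. Of fibroblast and leukocyte markers, COL1A2, DCN, LUM, PTPRC and CD3E were at 0 counts in at least 8 of 12 libraries, while COL1A1, PDGFRA and CD68 were at 0 in none, with means of 2.12, 1.66 and 1.45 CPM in control. Of 4 secretory airway markers, SCGB1A1 and BPIFA1 were at 0 in 12 and 11 libraries and MUC5AC and MUC5B in none, and the list summed to 1.14 to 4.51 CPM. The fibroblast list summed to 2.89 to 4.27 CPM in control, 4.62 to 5.99 with PFBA and 3.77 to 4.17 with PFHxA, and the leukocyte list to no more than 3.04 CPM in any library. The libraries differed in how gene levels followed transcript GC content: the slope per 10 points of GC was from -0.0621 to -0.00849 log2 units in controls, from -0.0683 to -0.00362 in PFBA libraries and from 0.0674 to 0.0984 in PFHxA libraries. The mitochondrial share of counts was 10.9 ± 1.253% in control, 11.4 ± 0.238% with PFBA and 12.6 ± 0.572% with PFHxA (SD, n = 4), and its part in the results was not tested. As the members have AT-rich transcripts, the main differences that involve PFHxA are also given after removal of the GC and length trends of the libraries (trend removed).

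Levels of different genes were compared per length, as counts per kilobase of the longest transcript scaled to a common sum in each library (TPM). In control, TPX2, which nucleates microtubules around chromosomes and activates Aurora A kinase, was the highest of the 10 at 113.5 ± 3.42 TPM (SD, n = 4). CENPF, a large coiled-coil protein of the outer kinetochore, followed at 64.4 ± 6.55 TPM, and its range overlapped that of NUSAP1, a microtubule bundling protein, at 60.1 ± 3.02 TPM. The checkpoint kinase BUB1 stood apart from both neighbours at 49.0 ± 2.82 TPM. DLGAP5, which stabilises kinetochore fibres, was at 41.3 ± 0.718 TPM. PRC1, which bundles antiparallel microtubules of the central spindle, was at 38.8 ± 2.61 TPM, and ECT2, the exchange factor that activates RhoA for cytokinesis, at 36.1 ± 1.28 TPM. PRC1 overlapped both of them. HMMR, a microtubule-binding protein also known as a hyaluronan receptor, was at 21.1 ± 1.84 TPM and ASPM, a protein of the spindle poles, at 14.4 ± 1.05 TPM. CENPE, the kinesin that carries chromosomes to the spindle equator, was lowest at 9.29 ± 1.01 TPM, and the ranges of these last 3 did not meet. The order with PFBA was that of the controls, from TPX2 at 118.7 ± 6.70 to CENPE at 9.37 ± 0.831 TPM. With PFHxA TPX2 again led at 121.3 ± 2.599 TPM and CENPE was last at 4.59 ± 1.59 TPM, and NUSAP1 (51.95 ± 3.88 TPM) came before CENPF (45.5 ± 6.67 TPM) and PRC1 (38.1 ± 2.68 TPM) before DLGAP5 (28.7 ± 3.59 TPM).

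The kinetochore motor CENPE showed the widest gap between groups. Its level was 41.0, 36.7, 32.2 and 32.3 CPM in control a to d, where the letters name columns, and 39.4, 34.2, 33.6 and 33.0 CPM in PFBA a to d. In PFHxA a to d it was 26.3, 14.9, 14.2 and 15.1 CPM. Controls and PFBA libraries overlapped throughout, and all 4 PFHxA libraries lay below all 8 others. Within the PFHxA group, library a stood well above the other three, which were close to each other. The mean with PFHxA was 17.6 ± 5.80 CPM against 35.5 ± 4.17 in control (log2 fold -1.01, 95% interval -1.40 to -0.62), and without PFHxA a the log2 fold was -1.27.

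CENPF, the other kinetochore protein that was lower with PFHxA, had the highest counts of the members. It was at 329.7, 309.1, 288.9 and 252.4 CPM in control a to d and at 329.9, 313.7, 300.8 and 276.8 CPM in PFBA a to d. PFHxA a held 250 CPM and PFHxA b to d held 188.6, 199.3 and 202.0 CPM. PFHxA a and control d thus almost met, and the other three PFHxA libraries were well below all controls (log2 fold -0.49, interval -0.70 to -0.28). BUB1, the kinase that recruits the spindle checkpoint to unattached kinetochores, ran from 72.0 to 84.6 CPM in control, 71.4 to 88.3 with PFBA and 69.2 to 76.5 with PFHxA. The 3 ranges of BUB1 overlapped (log2 fold with PFHxA -0.11, interval -0.26 to 0.03).

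Among proteins of the spindle poles and fibres, HMMR, ASPM and DLGAP5 were lower with PFHxA. HMMR was at 29.01, 26.1, 29.3 and 31.6 CPM in control a to d, 29.2, 22.4, 26.5 and 24.9 CPM in PFBA a to d and 20.3, 18.2, 17.4 and 18.4 CPM in PFHxA a to d. ASPM was at 76.6, 71.6, 67.4 and 63.2 CPM in control, 77.9, 69.1, 72.4 and 69.3 with PFBA and 58.1, 43.4, 48.4 and 48.7 with PFHxA, in the same order of libraries. In both, the 4 PFHxA libraries lay below the other 8, and the highest of them was PFHxA a. The log2 fold of PFHxA against control was -0.64 for HMMR (interval -0.83 to -0.46), -0.49 for ASPM (-0.67 to -0.31) and -0.51 for DLGAP5 (-0.67 to -0.35). DLGAP5 was at 53.5 to 55.8 CPM in control, at 47.1 to 56.1 with PFBA and at 35.4 to 44.4 with PFHxA, where the 44.4 CPM belonged to library a. The control libraries of DLGAP5 were close together (SD 1.03 CPM around 54.5), and library a of the PFHxA group lay nearest to them.

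TPX2 went the other way in its fitted value and NUSAP1 was only slightly lower. TPX2 was at 184.8, 189.3, 180.5 and 172.2 CPM in control, 192.4, 190.5, 185.6 and 174.4 with PFBA and 187.8, 197.6, 196.5 and 202.3 with PFHxA. The top control lay above the lowest PFHxA library, so the groups overlapped in CPM (log2 fold 0.11, interval 0.02 to 0.20). In TPM they did not, with 109.2 to 117.4 in control and 118.8 to 124.9 with PFHxA. NUSAP1 ran from 60.1 to 67.1 CPM in control, from 61.4 to 68.8 with PFBA and from 53.3 to 60.9 with PFHxA, and PFHxA a again reached into the control range (log2 fold -0.20, interval -0.32 to -0.08).

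The pair that acts in the central spindle and cytokinesis differed. ECT2 was at 74.8, 69.4, 68.6 and 69.7 CPM in control a to d, 74.4, 67.1, 70.9 and 65.2 with PFBA and 57.5, 51.7, 52.5 and 54.0 with PFHxA. All PFHxA libraries were below all others (log2 fold -0.39, interval -0.50 to -0.27). PRC1 was at 65.4 to 75.8 CPM in control, 67.3 to 70.5 with PFBA and 65.2 to 76.5 with PFHxA, and no group stood apart (log2 fold -0.01, interval -0.14 to 0.12). The table also lists PRC1-AS1 on the opposite strand over 22280 bases of PRC1, with 5 to 15 counts per library, and as the strand setting of the counting is not given, reads of the 2 cannot be told apart. HMMR-AS1 overlaps HMMR and was at 0 counts in all 12 libraries.

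**Figure D2:**
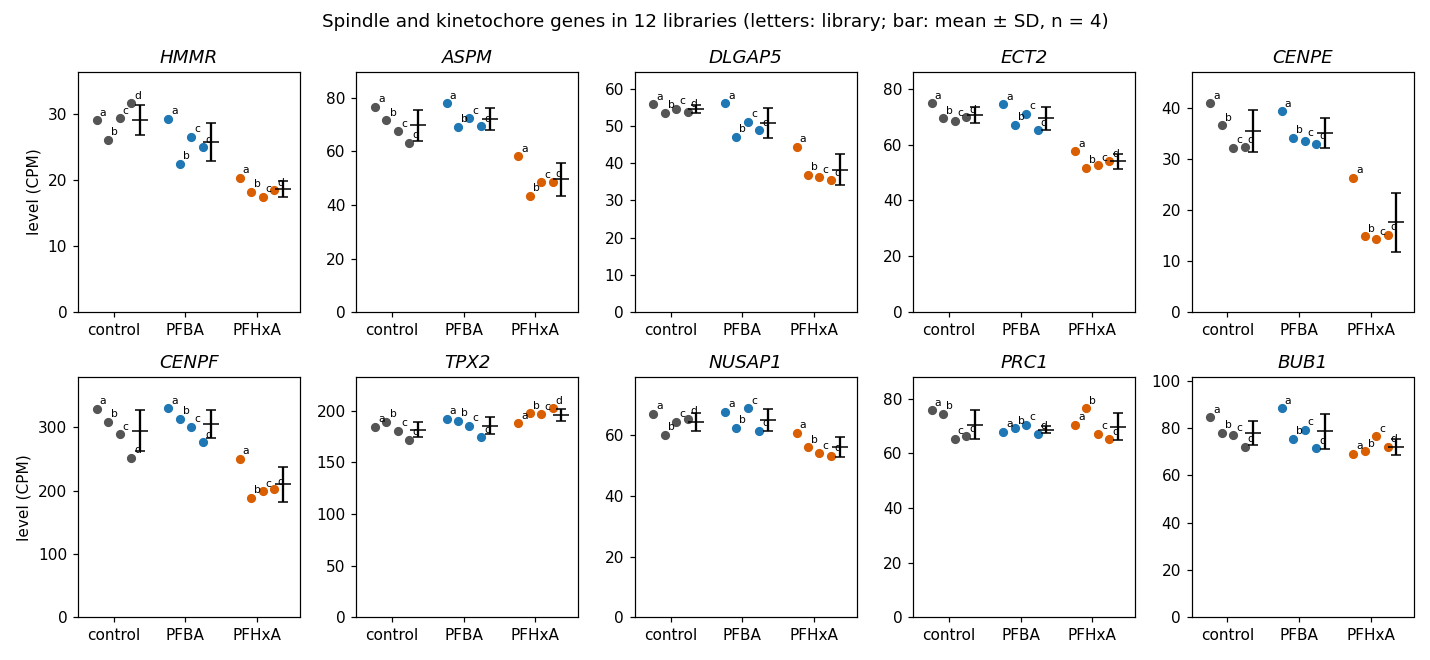
Level in CPM (y axis, from 0) of each gene in the control, PFBA and PFHxA libraries; each point is a library with its letter, and the bar beside a group is its mean ± SD (n = 4). In 6 genes the 4 PFHxA points lie below all control points, and in CENPE the PFHxA a point, at 26.3 CPM, sits above the other three at 14.2 to 15.1 CPM.

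In all, the PFHxA libraries lay below all 4 controls in 6 of 10 members, HMMR, ASPM, DLGAP5, ECT2, CENPE and CENPF, where 11.2% of tested genes did so. Of the 10 members, 7 had an adjusted p under 0.05 in the lower direction in edgeR, the 6 and NUSAP1, and 0 in the higher one, beside 8.82% of all tested genes called lower. Since this contrast chose the members, these counts only describe the list. In 7 of 10 members, the same 7, PFHxA a was the highest library of its group. PFHxA a also had the lowest mitochondrial share of the PFHxA libraries, 11.7% of counts against 12.7 to 12.9%, and the lowest GC slope, 0.0674 against 0.0742 to 0.0984. Their part in the higher levels of PFHxA a was not tested.

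The members divided by the GC content of their longest transcript. GC content was not itself used in the choice, but levels followed it in the contrast that chose the members. The split of the members was made after seeing the data, so it is a description. The 5 with under 40% GC were CENPE (35.3%), HMMR (36.65%), ASPM (37.1%), ECT2 (38.0%) and DLGAP5 (38.4%), at the lowest 2.13 to 9.32% of tested genes. With CENPF (40.8%) they are the 6 that did not overlap control. BUB1 (42.5%), NUSAP1 (42.6%), TPX2 (46.8%) and PRC1 (48.1%) had higher GC content and log2 folds between -0.20 and 0.11. Among all tested genes under 40% GC, 31.7% were called lower with PFHxA, and among those of at least 50% GC 0.725%. Long transcripts occurred on the lower side too: ASPM, CENPF and CENPE have 10887, 10307 and 8612 nt, longer than at least 94.0% of tested genes, while HMMR and DLGAP5 have 3102 and 2973 nt.

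Trend removed, 6 of 10 members had an adjusted p under 0.05 in the lower direction in edgeR. Beside them stood 1.69% of all genes and 4.7% of all genes under 40% GC. NUSAP1 was no longer among the 6. This is still the contrast that chose the members, so the calls and intervals describe them and are no test of them. The log2 fold of CENPE became -0.86 (interval -1.20 to -0.52), that of CENPF -0.44 (-0.62 to -0.26) and that of ASPM -0.37 (-0.51 to -0.23). These changed less than HMMR, DLGAP5 and ECT2. HMMR went from -0.64 to -0.40, DLGAP5 from -0.51 to -0.30 and ECT2 from -0.39 to -0.21. NUSAP1 went from -0.20 to -0.07, and BUB1 from -0.11 to -0.01. TPX2 stayed at 0.11 and PRC1 was at -0.05.

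**Figure D3:**
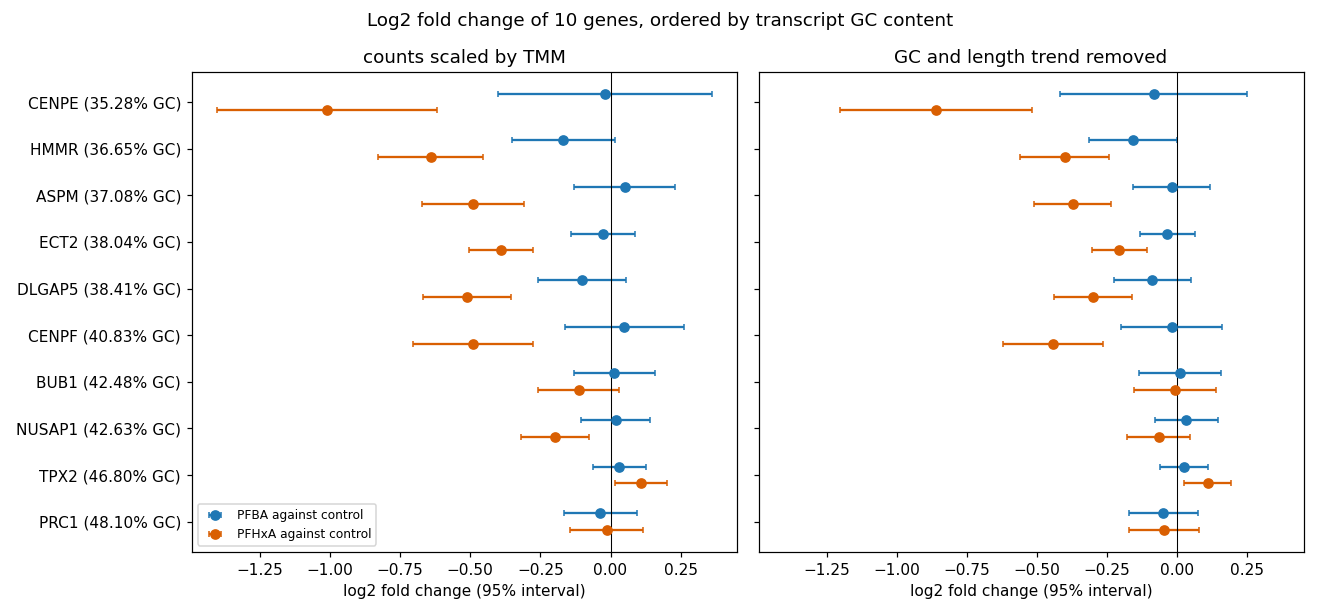
Log2 fold change (x axis) with its 95% interval for PFBA against control (blue) and PFHxA against control (orange), genes ordered from the lowest GC content at the top; left with TMM scaling alone and right after trend removal. The blue intervals on the left all include 0, and on the right that of HMMR ends just below 0, at -0.00102. The 6 topmost genes have orange intervals below 0 on both sides.

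PFBA against control was the contrast whose exposed libraries played no part in choosing the members, although it shares the 4 controls with the one that did. No member stood out: 5 of 10 were fitted lower and 5 higher, with a median log2 fold of -0.00365 beside -0.00262 over all genes. By edgeR's quasi-likelihood test 0 of 10 were called, beside 0.00604% of all genes (1 of 16554), in 0 of 10 did the groups not overlap (PFBA lay below control in 2.8% of all genes), and 0 members had an unadjusted p under 0.05, as 9.86% of all genes did. DESeq2 and limma-voom called 0 members too. HMMR had the smallest p of the members, with 25.8 ± 2.85 CPM against 28.99 ± 2.27 in control (log2 fold -0.17, SE 0.0850, interval -0.35 to 0.01, adjusted p = 0.545 in edgeR). DLGAP5 was at 50.8 ± 3.92 against 54.5 ± 1.03 CPM (log2 fold -0.10, interval -0.26 to 0.06, adjusted p = 0.678 in edgeR). The intervals bound what could have been missed: for ECT2 they ran from -0.14 to 0.09 and for TPX2 from -0.06 to 0.12. For CENPE the interval from -0.40 to 0.36 leaves room for a change of moderate size in either direction. Trend removed, 7 of 10 members were fitted lower with PFBA, with a median log2 fold of -0.028 (-0.00729 over all genes), and 0 were called. The interval of HMMR then ran from -0.316 to -0.00102 (adjusted p = 0.587 in edgeR).

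PFHxA was set against PFBA at the same 1 µM and 7 days, which compares the longer with the shorter chain. All 4 PFHxA libraries lay below all 4 PFBA libraries in 7 of 10 members, HMMR, ASPM, DLGAP5, ECT2, CENPE, CENPF and NUSAP1, as in 10.8% of all genes. The same 7 were called lower, beside 7.07% of all genes. The PFHxA libraries that chose the members are part of this contrast, and so nothing is read from these counts. CENPE was at 17.6 ± 5.80 CPM with PFHxA and 35.1 ± 2.91 CPM with PFBA (log2 fold -0.99, interval -1.38 to -0.60). ASPM was at 49.6 ± 6.16 and 72.2 ± 4.13 CPM (log2 fold -0.54, -0.72 to -0.36), and CENPF at 210.0 ± 27.3 and 305.3 ± 22.4 CPM (-0.54, -0.75 to -0.33). With the trend removed, these 3 were the members still called, beside 0.658% of all genes called lower, with log2 folds of -0.77, -0.35 and -0.42. HMMR then had a log2 fold of -0.24 (interval -0.40 to -0.08), DLGAP5 -0.21 (-0.35 to -0.07) and ECT2 -0.17 (-0.27 to -0.07). The acids were not separated for TPX2 (0.08, -0.02 to 0.17), PRC1 (0.02, -0.11 to 0.15) or BUB1 (-0.13, -0.27 to 0.02).

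The other genes of mitosis, 140 genes in 9 lists of textbook complexes without the 10 members, gave a wider view. The lists were drawn up with earlier results known and the split by GC content after seeing the data, so their counts with PFHxA are a description. All 140 were tested, and 0 were called with PFBA by edgeR, limma-voom or DESeq2. With PFBA 13 had an unadjusted p under 0.05 in edgeR, beside 9.86% of all genes. The fitted value was lower in 94 of the 140 with PFBA, with a median log2 fold of -0.038 (-0.00262 over all genes), and in 90 with PFHxA. Trend removed, the medians were -0.043 with PFBA (-0.00729 over all genes) and -0.019 with PFHxA (0.00110). With PFHxA, 40 fell and 12 rose, beside 8.82% and 6.08% of all genes, and their median log2 fold was -0.08 (-0.00385 over all genes). The counts differed with GC content. Of 33 genes under 40% GC, 24 fell and 0 rose, where 31.7% of all tested genes of that GC content fell. Of 61 between 40 and 50%, 16 fell and 2 rose. The share over all genes of that GC content is not given here, so nothing is read from this count. Of 46 of at least 50% GC, 0 fell and 10 rose, where 10.9% of all genes of that GC content rose. With the trend removed, 13 were called lower and 2 higher, 8 of the 13 from the 33 under 40% GC, beside 4.7% of all genes under 40% GC. Without PFHxA b, 4 in place of 10 of the GC-rich genes were called higher. SKA1, of the outer kinetochore, was named after its value was seen: it was the highest point by fold and did not pass the test (log2 fold 0.92, adjusted p = 0.0828 in edgeR).

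The counts by complex stand beside 8.82% of all tested genes called lower with PFHxA and 6.08% called higher. The inner kinetochore and centromere list had 4 of 20 that fell and 0 that rose. CENPQ, of the constitutive centromere network, was at 13.5 ± 1.05 CPM in control and fell to 7.87 ± 0.703 CPM (log2 fold -0.77, adjusted p = 0.00117 in edgeR), and CENPU of the same network fell with a log2 fold of -0.35. In the outer kinetochore, 5 of 13 fell and 0 rose. NDC80, the microtubule-binding subunit of the kinetochore, fell from 36.7 ± 0.936 to 27.1 ± 1.77 CPM (log2 fold -0.44), SKA2 had a log2 fold of -0.24 and NSL1 one of -0.36. Of 12 genes of the spindle checkpoint and its kinases, 4 fell, among them the kinase TTK, from 34.8 ± 2.63 to 22.8 ± 5.09 CPM (log2 fold -0.61), SPDL1 (-0.42) and KNTC1 (-0.30), both of the dynein-binding arm of the kinetochore. The chromosomal passenger complex and shugoshins held 1 of 6 that fell and 2 that rose. SGO2, which guards centromeric cohesion, fell by 0.82 on the log2 scale to 11.2 ± 1.40 CPM, whereas INCENP and the survivin gene BIRC5 rose with log2 folds of 0.21 and 0.33.

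Of 28 spindle assembly genes, 8 fell and 1 rose. The kinesins KIF15 and KIF18A and the augmin subunit HAUS1 fell with log2 folds of -0.40, -0.69 and -0.49. Of 9 genes of the central spindle and cytokinesis 4 fell and 1 rose: KIF20B, a kinesin of the midzone, fell from 86.9 ± 7.15 to 47.9 ± 12.4 CPM (log2 fold -0.86) and CEP55 by 0.28, and the citron kinase gene CIT rose (0.33). Condensin and cohesin had the highest share of calls, 8 of 16 that fell and 4 that rose. The condensin ATPases SMC2 and SMC4 fell with log2 folds of -0.53 and -0.51 and NCAPG with -0.41. In the anaphase-promoting complex 3 of 17 fell and 1 rose, with ANAPC4 at -0.27, ANAPC10 at -0.45 and CDC16 at -0.20. Of these genes, CENPQ, NDC80, SPDL1, KNTC1, SGO2, KIF15, KIF18A, HAUS1, KIF20B, SMC2, SMC4 and NCAPG stayed called with the trend removed, and CENPU, NSL1, SKA2, TTK, INCENP, BIRC5, CEP55, CIT, ANAPC4, ANAPC10 and CDC16 did not.

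Regulators of G2 and mitosis moved in both directions. Of 19 G2/M cyclins, kinases and transcription factors 3 fell and 3 rose, beside 8.82% and 6.08% of all tested genes. With the trend removed 0 of the 19 were called lower and 1 higher. FOXM1, the factor that drives G2/M genes, was at 63.6 ± 1.53 CPM in control and rose to 77.2 ± 3.78 CPM (log2 fold 0.28, adjusted p = 0.00265 in edgeR; 0.20 with the trend removed, adjusted p = 0.0342). MYBL2, which encodes B-MYB, rose from 43.7 ± 2.02 to 52.9 ± 1.96 CPM (log2 fold 0.28; 0.19 and adjusted p = 0.0515 with the trend removed). TOP2A, the topoisomerase of chromosome condensation, fell from 558.0 ± 31.1 to 447.3 ± 32.4 CPM (log2 fold -0.32; -0.19 and adjusted p = 0.0515 with the trend removed). Transcript GC content was 55.6% in FOXM1, 60.5% in MYBL2 and 39.1% in TOP2A, and its part in these values was not tested. Of 27 S phase genes 3 fell (11.1%) and 1 rose, beside 8.82% and 6.08% of all tested genes, so nothing is read from these counts. The 3 were RRM1, RFC3 and RFC4, with log2 folds of -0.19, -0.24 and -0.29, and 0 of the 27 were called with the trend removed. Of 17 genes of G1 arrest and repression 1 fell (5.88%, below the share over all genes) and 0 rose. It was CDKN1C, from 6.77 ± 0.607 to 3.90 ± 1.17 CPM (log2 fold -0.80), and the p53 target CDKN1A was at 676.1 ± 18.7 CPM against 638.6 ± 16.7 (log2 fold 0.08, adjusted p = 0.176 in edgeR).

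**Figure D4:**
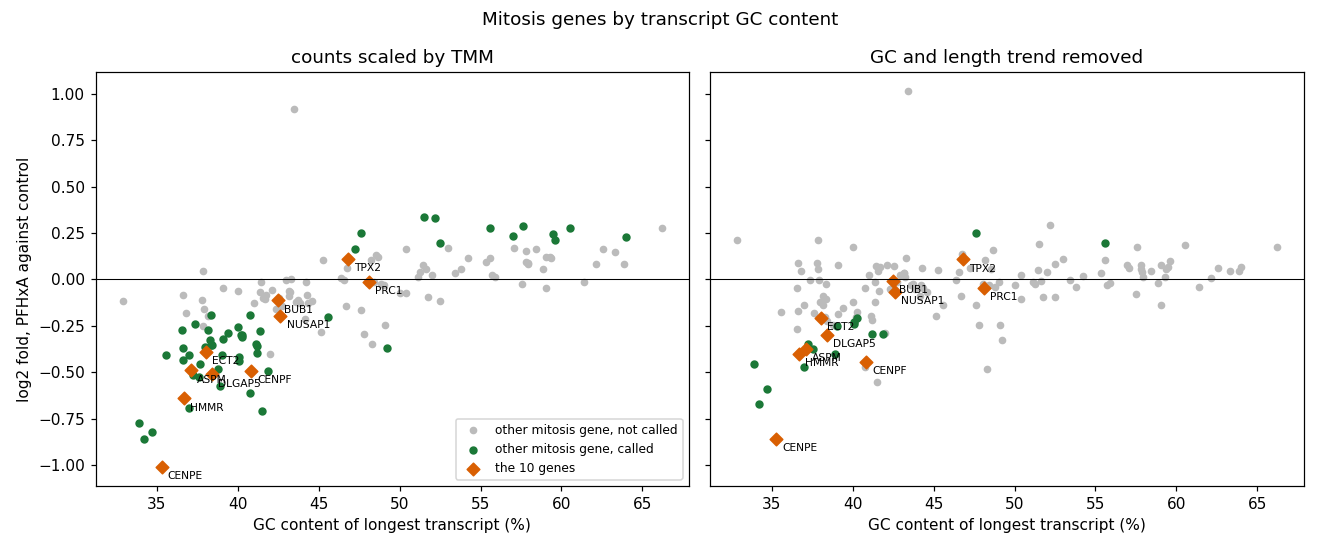
Log2 fold of PFHxA against control (y axis) by GC content of the longest transcript in % (x axis) for the 140 other mitosis genes (grey, green where called at an adjusted p under 0.05) and the 10 members (orange diamonds); left with TMM scaling and right after trend removal. On the left the called genes under 40% GC all lie below 0 and those of at least 50% all above, and on the right 13 called genes remain below 0 and 2 above.

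Members also varied together among libraries of the same group, which the choice did not use. Whether other genes of like GC content vary together as much was not tested. After subtraction of group means from log2 CPM, 40 of 45 pairs had a positive Pearson r over the 12 libraries, with a median of 0.407. ASPM and CENPF had the highest, 0.927, and ASPM with CENPE (0.874), CENPE with CENPF (0.859) and CENPE with DLGAP5 (0.858) followed. HMMR and NUSAP1 (0.769), and HMMR and DLGAP5 (0.738), were also high, while HMMR and CENPF had 0.137. TPX2 had its highest r, 0.677, with BUB1 and its lowest, -0.339, with HMMR. Several values, among them those of TPX2, of BUB1 and of CENPE with DLGAP5, depended on PFHxA a. Without that library TPX2 had r of 0.878 with CENPF (0.326 with it), 0.670 with CENPE (-0.112) and 0.634 with ASPM (0.119), and CENPE with DLGAP5 had 0.553. BUB1 then had 0.757 with CENPE (0.129 with PFHxA a), 0.7395 with DLGAP5 (0.269) and 0.870 with ASPM (0.4585). ASPM with CENPF then had 0.869, ASPM with CENPE 0.790 and CENPE with CENPF 0.816. PRC1 had no r above 0.328 with any member over 12 libraries, and one of 0.542 with CENPE without PFHxA a. The libraries share depth and GC slope within each column, so these values are descriptions. Without PFHxA a, 42 of 45 pairs were positive with a median of 0.542, and with the trend removed 42, with a median of 0.367. In the mean over members, control a (0.096), PFBA a (0.110) and PFHxA a (0.158) were the highest libraries of their groups on the log2 scale. No source ties equal letters to a shared culture or day.

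**Figure D5:**
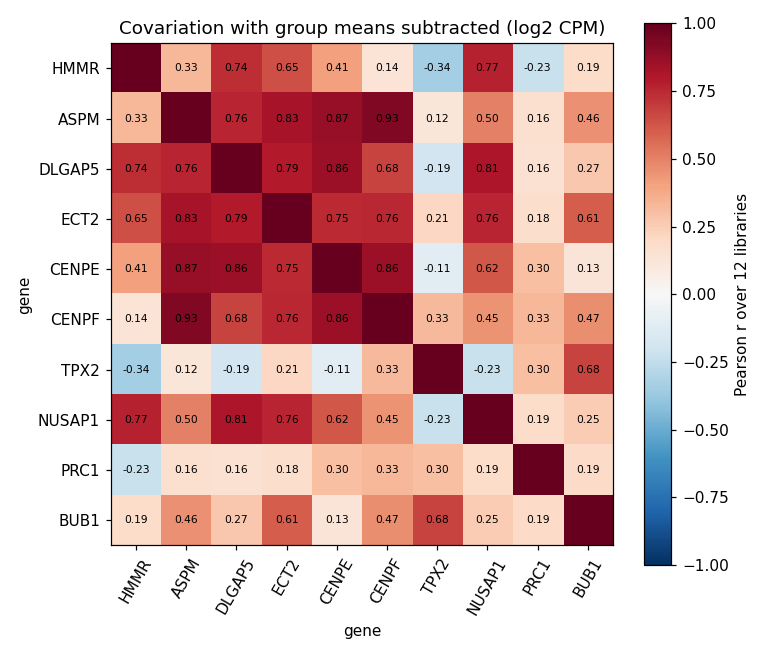
Pearson r between each pair of the 10 genes (both axes) over 12 libraries, on log2 CPM with the mean of each group subtracted; red is positive and blue negative. CENPE, CENPF and ASPM form a block of r from 0.859 to 0.927, and the TPX2 and PRC1 rows are pale apart from TPX2 with BUB1 at 0.677; without PFHxA a, which is not drawn, TPX2 with CENPF had 0.878.

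The genes most like the members' mean profile over the 12 libraries, among 11529 other genes with at least 5 CPM, were TOP2A (Pearson r 0.993, Spearman rho 0.958), DDX46 (0.992, 0.979), USP8 (0.990, 0.937), RGS5 (0.988, 0.972) and HAUS6 (0.984, 0.909). With group means subtracted they were PCM1 (r 0.970, rho 0.951), TOP2A (0.969, 0.839), USP8 (0.953, 0.909), DDX46 (0.948, 0.867) and DDX21 (0.947, 0.853). TOP2A, USP8 and DDX46 were on both lists. The GC content of these 7 genes was between 36.6% (RGS5) and 41.1% (DDX21), below the median of tested genes of 48.5%. Over all 11529 genes the median r was -0.0442, and 0.0136 with group means subtracted. Without that subtraction the profile holds the contrast that chose the members, so the first list is a description.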

How the data were processed

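Gene-level values of 12 libraries were used, 4 in each of 3 groups; columns were assigned to groups by their prefixes. The authors deposited raw counts per Ensembl gene, from reads aligned with HISAT2 2.0.4 to GRCh38 (hg38), per the submitters' processing notes. No source used here names the counting program, the annotation or the strand setting. A further 12 columns of per-sample values, in a second unit, were not used, so levels per length were computed from the counts. RNA was total RNA, per the labels' protocols.

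Genes were filtered with filterByExpr (minimum count 10, total 15), scaled by TMM, and fitted in 1 quasi-likelihood model over all libraries (edgeR 4.0.16, robust, R 4.3.3; limma 3.58.1 and DESeq2 1.42.0 in alternatives). The biological coefficient of variation was 0.127. Tests are two-sided with Benjamini-Hochberg adjustment over 16554 genes and a threshold of 0.05. SEs come from the fold and its F value, and intervals are at 95%. Log2 CPM adds a prior count of 2. The members, the gene lists and the settings were chosen with earlier results of these data known. Named genes are the members, up to 3 genes per list with the smallest p with PFHxA and at least 1 CPM, the 5 genes most like the members on each scale, and genes overlapping a member; some items are not reported here.

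GC content and length are of the longest GENCODE 29 transcript. For trend removal, natural splines (5 degrees of freedom each) of both were fitted per library and entered as offsets. The split by GC content was made after seeing the data. Other settings were RLE or upper-quartile scaling, other filters, the 8 libraries of a contrast, limma-voom, DESeq2, a block on column letter and leaving out each library. On simulated counts of 16554 genes for PFHxA against control, the fit recovered 66 of 66 genes changed 2-fold, 47 of 67 changed 1.5-fold and 9 of 67 changed 1.25-fold, with 12 false calls. The simulation gave every gene the same dispersion, held no GC trend and changed only genes with high counts. Its recovery and false calls therefore need not hold for the real libraries, whose GC slopes differed between groups. Libraries of a group differed by 9.87 to 21.4 times the sampling noise (chi-square per degree of freedom), so none was a copy of another.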

Additional observations from a re-analysis of the deposited data

Results flagged for a closer look

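CENPE in PFHxA a was at 26.3 CPM, far from the other PFHxA libraries, the nearest of which was at 15.1 CPM; the gap was 0.927 of the range of the group. Of 30 gene and group combinations looked at, this was the only 1 past the threshold used, which chance passes in about 1 in 20 groups.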

How the results depend on the processing

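The 10 members had no adjusted p under 0.05 for PFBA against control under any of 210 combinations of gene and alternative (edgeR, limma-voom or DESeq2; smallest 0.447, HMMR without control b). Near 0, 12 of these log2 folds changed sign. Trend removed, ASPM was at -0.02 and CENPF at -0.0205. Without 1 library, ECT2 ranged from -0.0611 to 0.0033, CENPE from -0.08115 to 0.0548, CENPF from -0.0181 to 0.106, NUSAP1 from -0.0132 to 0.0445 and BUB1 from -0.0480 to 0.05625. The count of all genes called for PFBA was 1 and became 2 with no filter, 0 with limma-voom, 44 with DESeq2, 2 in the fit of 8 libraries and 0 to 4 without 1 library (0 on leaving out any of control a, c, d and PFHxA a, c, d; 2 without PFBA b or c or PFHxA b; 4 without PFBA d).

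For PFHxA against control, 2466 genes became 433 with the trend removed, and 1523 to 2396 without 1 library (1523 without PFHxA b). The other mitosis genes called, 52, became 15, those under 40% GC called lower went from 24 to 8 and those of at least 50% GC called higher from 10 to 1, with the trend removed; without 1 library these counts were 40 to 52, 21 to 25 and 4 to 10, the 4 without PFHxA b. For PFHxA against PFBA, 1806 genes became 146 and 43 mitosis genes became 5 with the trend removed. Without 1 library they were 1035 to 2187 and 29 to 52; PFHxA b gave the 1035, and leaving out PFBA a, c or d or PFHxA c gave 1108 to 1179. The cause of these shifts with the trend or a library was not tested. NUSAP1 lost its call against control with the trend removed, in the fit of 8 libraries and on leaving out any of control a, c, d and PFHxA b, c, d. HMMR, ASPM, DLGAP5, ECT2, CENPE and CENPF were called against control in every alternative run. Of all genes, 8.82% were called lower in the main fit and 1.69% with the trend removed. These runs repeat the contrast that chose the members, so the calls describe them and are no test of them. Against PFBA, HMMR, DLGAP5, ECT2 and NUSAP1 lost their calls with the trend removed, and NUSAP1 also on leaving out any of PFBA a, c and PFHxA b, c, d. The median pair r within groups was 0.338 to 0.542 without 1 library. Depth did not limit the members, which had at least 255 counts per library. The planned comparison of levels per length with the deposited length-scaled unit was not run. The columns do not carry the replicate numbers of the labels. A replicate block on the column letter, added after seeing the data, called 0 genes for PFBA against control, 2441 for PFHxA against control and 1838 for PFHxA against PFBA, and changed no call of a member. The letters are not known to pair libraries: over all genes, same-letter deviations from the group means had r from -0.0896 to 0.0625 in 12 pairs, and 3 of 12 were highest with their own letter.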
